A study of Mus musculus with 10 samples.

Results

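The numbered Zfp genes are mouse protein-coding genes whose symbol is Zfp followed by digits alone. They were chosen by that symbol and by a sum of at least 500 reads over 10 heart libraries. Of 54532 genes in the count table, 365 protein-coding genes carried such a symbol and 209 of these reached the sum. The sum of reads is a measured value, so it describes the members and is no result. The lowest sums among the members were 503 reads for Zfp128, 503 for Zfp991 and 505 for Zfp974. Just below the limit were Zfp975 with 495 reads, Zfp182 with 482 and Zfp11 with 478. The sum was taken over both groups, and 170 members had at least 250 reads in each group. The other 39 reached that number in saline alone, so that their 2 groups of libraries had to differ in reads, and counts over the members describe the list only.

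RNA came from hearts of 8-week-old C57BL/6 mice. Control mice received a saline injection and gave 5 libraries. The other 5 libraries came from mice stressed for 24 h with bacterial lipopolysaccharide (LPS), an endotoxin. The labels number the mice and give no dose, sex or batch, and p-values measure the spread between these 10 libraries. All values are for whole hearts, in which fewer cells of a type and less RNA per cell cannot be told apart.

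Most Zfp symbols stand for proteins with tandem C2H2 zinc fingers, short loops held by a zinc ion that each read a few bases of DNA. Many of them also carry a KRAB domain, which recruits the corepressor Trim28 and, through it, the histone methyltransferase Setdb1, and these KRAB proteins are best known for silencing transposable elements and imprinted loci. Their genes spread by tandem duplication and stand in clusters on several mouse chromosomes. The symbol is a naming rule and not a protein family. Zfp36, which encodes the mRNA-binding protein tristetraprolin, has fingers of the CCCH kind, and the table's transcription factor column put 179 members under C2H2 fingers and 2 under ZBTB and left 28 without an entry. A search of the translated annotated coding sequences found a median of 11 C2H2 fingers per member, from 0 to 37.

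Before the members, the state of the libraries matters. Total counts were between 14607969 and 17012372. The 8 cardiomyocyte markers summed to 38900 to 46800 CPM (reads scaled to library size) in saline and 41900 to 45100 CPM in LPS hearts. The endothelial list stood at 1480 to 1900 CPM in saline replicates 1 to 4, at 973 CPM in saline replicate 5 and at 570 to 750 CPM in LPS hearts, and 6 of its 6 genes fell. Fibroblast markers were at 1340 to 1670 against 1180 to 1560 CPM and pericyte and smooth muscle markers at 1050 to 1340 against 828 to 1030 CPM, with 2 of 6 genes falling in each list. Macrophage markers were at 199 to 281 against 153 to 213 CPM (2 of 6 fell) and lymphocyte markers at 1.37 to 2.84 against 0.737 to 1.71 CPM. Neutrophil markers were at 1.29 to 4.01 CPM in saline replicates 1 to 4, below every LPS library, at 23 CPM in saline replicate 5 and at 12.9 to 38.9 CPM in LPS hearts (2 of 6 rose). The part of these cell types in the results on the members was not tested. A pair of libraries stood apart. Saline replicate 5 had 3690 CPM of 8 interferon-response genes, against 79.7 to 361 CPM in the other saline libraries and 7110 to 14300 CPM in LPS libraries. LPS replicate 5 stood apart in the members themselves, as described next, and results are given without either library where they change.

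Numbered Zfp genes were mostly lower in LPS hearts. By edgeR's quasi-likelihood test, at a Benjamini-Hochberg adjusted p of 0.05 over all tested genes, 89 of 209 members fell and 15 rose, while 105 were not called. Among all 13864 tested genes 21% fell and 18.9% rose, and 39.9% were called in either direction. For protein-coding genes with at least 500 reads these shares were 21.3% and 20.6%, with 41.9% called. Among the members 42.6% fell and 7.18% rose. The median log2 fold change was -0.36 over the members, with quartiles at -0.70 and -0.05, and -0.02 over all tested genes. Changes were moderate. At least a 2-fold fall was called for 21 members and at least a 2-fold rise for 7, against 7.8% and 8.99% of all tested genes.

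**Figure D1:**
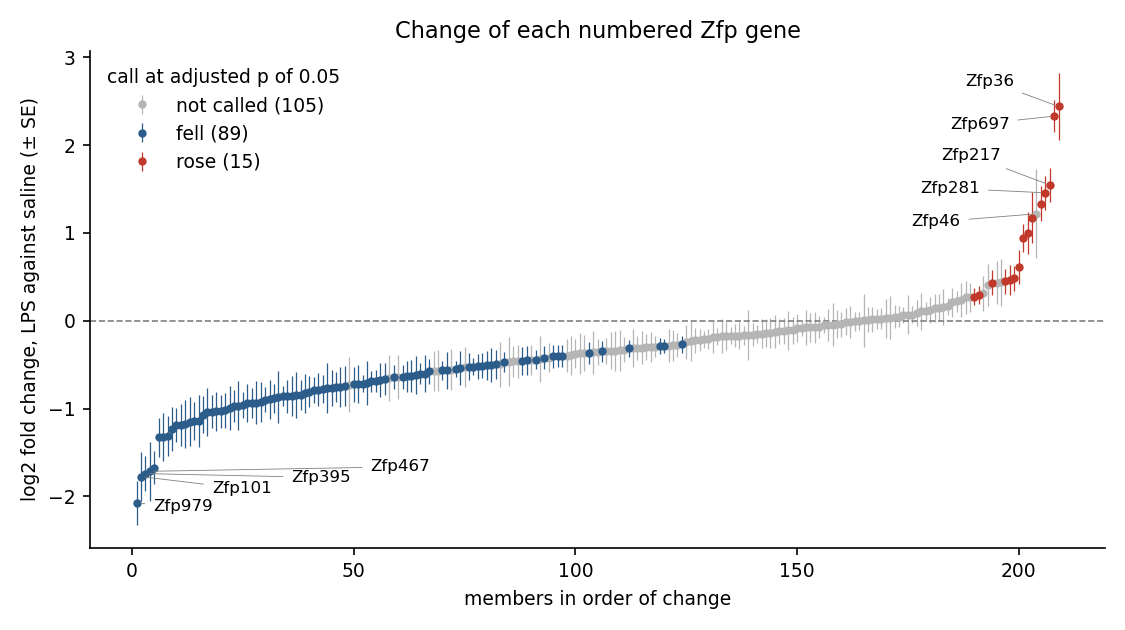
Log2 fold change of LPS against saline hearts for each of the 209 members, in order (points, with the SE as bars), coloured by the call at an adjusted p of 0.05. The long lower arm holds 89 genes that fell, and 15 genes rose, with Zfp36 and Zfp697 at the upper end; under total count scaling 139 members fell and 8 rose.

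In 50 members all 5 LPS libraries lay below all 5 saline libraries, 23.9% of them against 14.1% of all tested genes. In 8 members all LPS libraries lay above, 3.83% against 14.3%. The size of the change depended on which LPS library was read. The median log2 ratio of a member to its saline mean, with 0.5 CPM added, was -0.57, -0.37, -0.39 and -0.37 in LPS replicates 1 to 4 and -0.09 in LPS replicate 5. The saline libraries lay between -0.07 and 0.04. The same median over all protein-coding genes of at least 500 reads was between -0.04 and 0.01 in every library, but the TMM factors behind the CPM (edgeR's scaling of libraries) themselves bring that median near 0.

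**Figure D2:**
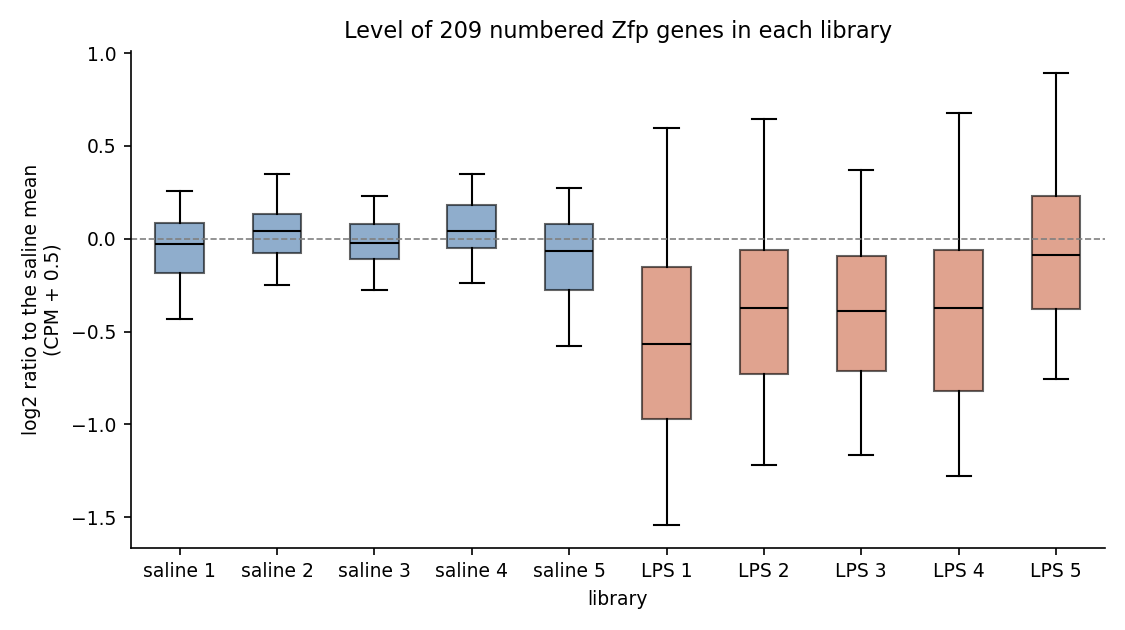
Log2 ratio of each member's CPM to its saline mean in the 10 libraries, as boxes (quartiles and median, whiskers at the 5th and 95th percentile). LPS replicates 1 to 4 are centred between -0.57 and -0.37, and LPS replicate 5 at -0.09, near the saline libraries.

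Without LPS replicate 5, 108 members fell and 13 rose, the median was -0.46, and of all genes then tested 21.9% fell and 19.1% rose. Without saline replicate 5, 90 fell and 16 rose, with a median of -0.36, against 22.9% and 21% of all genes. Under total count scaling 139 members fell and 8 rose, against 41.6% and 12.3% of all genes. A pair of nuclear RNAs, chosen after their values were seen, is given beside LPS replicate 5. Kcnq1ot1 stood at 1.41, 3.18, 1.74, 1.91 and 1.84 CPM in saline replicates 1 to 5 and at 1.18, 1.32, 1.29, 0.983 and 3.42 CPM in LPS replicates 1 to 5, highest in LPS replicate 5. Malat1 stood at 171, 287, 163, 299.5 and 269.8 CPM in saline and at 273, 234, 183, 223 and 351 CPM in LPS hearts, again with LPS replicate 5 at the top. Whether whatever sets that library apart bears on the members was not tested.

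Members with the KRAB A-box pattern (F, any residue, D, V, then F after 3 and W after a further 4 residues) were mostly lower in LPS hearts. The pattern was found in 73 members. Of these 37 fell and 2 rose, with a median log2 fold change of -0.56, against 21% and 18.9% of all tested genes. Among the 136 members without it 52 fell and 13 rose, with a median of -0.28. A pattern that was not found does not show that the domain is missing. With a wider pattern, chosen after seeing the data, 41 of 91 fell and 3 rose, with a median of -0.47. Without LPS replicate 5, 48 of the 73 fell and 2 rose, with a median of -0.71, and 60 of the 136 fell and 11 rose. Of all genes then tested 21.9% fell and 19.1% rose. The difference between both kinds of member was not tested.

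Summed over the 73 KRAB-pattern members, saline replicates 1 to 5 held 678.5, 776.4, 716.2, 786.1 and 669.2 CPM. LPS replicates 1 to 5 held 421.9, 526.4, 489.4, 503.7 and 735.8 CPM. LPS replicates 1 to 4 lay below every saline library, and LPS replicate 5 lay within their range. The other 136 members summed to 2964 to 3303 CPM in saline and 3015 to 3509 CPM in LPS hearts, with the groups overlapping. That sum rests much on the 5 members with the highest saline CPM, Zfp106, Zfp91, Zfp706, Zfp651 and Zfp46, none of which holds the KRAB pattern and which together held 827.1 to 1181 CPM in saline and 1046 to 1201 CPM in LPS hearts. The 131 members left without these 5 summed to 2085, 2194, 2073, 2162 and 2122 CPM in saline replicates 1 to 5 and to 1938, 2033, 1969, 2035 and 2343 CPM in LPS replicates 1 to 5. In these too, LPS replicates 1 to 4 lay below every saline library, and LPS replicate 5 lay above them all.

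**Figure D3:**
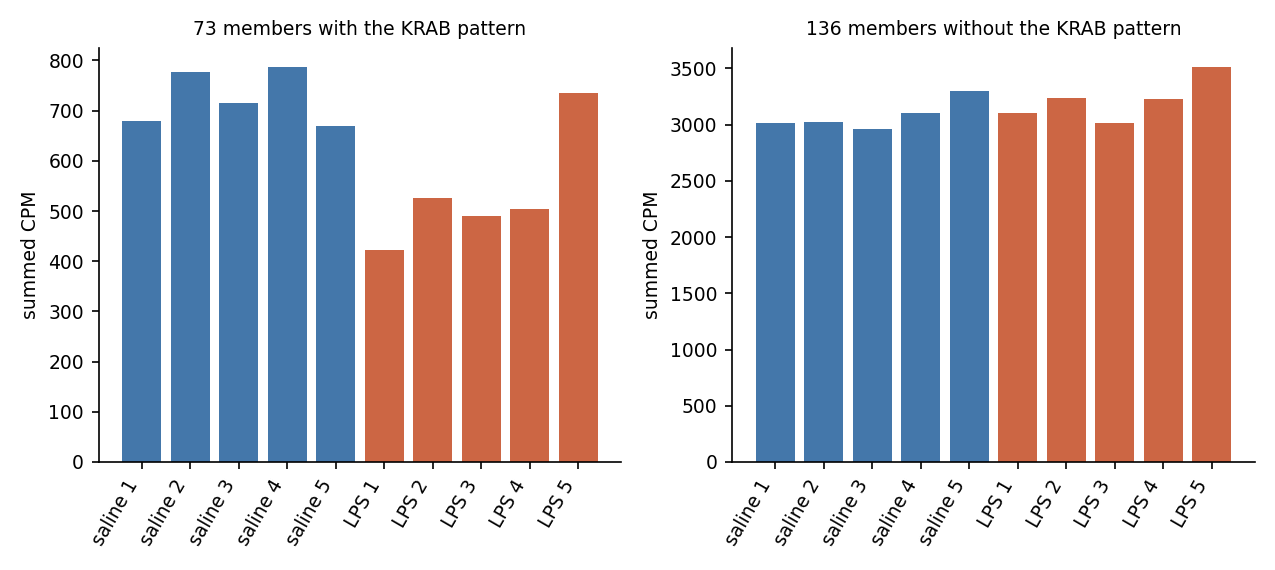
Summed CPM of the members with the KRAB pattern (left) and without it (right) in each library, as bars from 0. The KRAB-pattern sum is 421.9 to 526.4 CPM in LPS replicates 1 to 4 and 735.8 CPM in LPS replicate 5, against 669.2 to 786.1 CPM in saline; the sum on the right rests much on 5 abundant members, without which LPS replicates 1 to 4 are below every saline library.

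Members with more fingers had lower medians. The median log2 fold change was -0.16 in 42 members with 0 to 5 fingers, of which 15 fell. It was -0.31 in 61 members with 6 to 10 fingers (25 fell) and -0.45 in 70 members with 11 to 15 fingers (33 fell). In the 36 members with 16 or more fingers it was -0.55, and 16 fell. The shares that fell were 35.7%, 41%, 47.1% and 44.4% in this order, against 21% of all tested genes. Without saline replicate 2, 9 of the 42 members with the fewest fingers fell. These classes share chromosomes, read numbers and the KRAB pattern, and the order is a description.

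Members were also grouped by reads. The reads of both groups are summed, so a fall lowers the sum, and the relation of the change to the read number is in part built in. Of 67 members with 500 to 999 reads 36 fell, with a median of -0.65, and of 1245 other protein-coding genes in that range 32% fell, with a median of -0.24. Of 64 members with 1000 to 1999 reads 22 fell and 6 rose, with a median of -0.28, against 29.6% and 13.6% and a median of -0.16. Of 78 members with 2000 or more reads 31 fell and 8 rose, with a median of -0.22, against 16.9% and 24% and a median of 0.05. In each range the members' median lay below that of the other genes.

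The member with the largest fall was Zfp979, a KRAB-pattern gene on GRCm38 chromosome 4 (147611937 to 147642513). Zfp979 was at 7.98, 13.8, 9.65, 13.02 and 6.12 CPM in saline replicates 1 to 5 and at 2.63, 2.41, 1.47, 2.38 and 3.13 CPM in LPS replicates 1 to 5. The groups did not overlap, with LPS replicate 3 lowest and saline replicate 5 the lowest of its group. The log2 fold change was -2.08 ± 0.25 (SE; adjusted p = 2.01e-05). Zfp101 was at 5.48, 6.69, 5.83, 6.83 and 3.39 CPM in saline replicates 1 to 5 and at 1.38, 1.87, 1.17, 1.06 and 2.76 CPM in LPS replicates 1 to 5. Zfp101 lies on chromosome 17 (33360507 to 33394641), encodes 12 fingers and a KRAB pattern, and its groups did not overlap either (-1.77 ± 0.28, adjusted p = 0.000168). Of the windows of 50 bases in the transcripts of Zfp979, 24.6% also occur in transcripts of other genes, and its reads may have been split between copies. The promoters of both are shown because these members fell furthest. They are the RefSeq GRCm38.p6 sequences from 250 bases before to 50 after the gene start, on the gene's strand, and no motif searched was found in them:
Zfp979, chr4:147642459-147642758, minus strand: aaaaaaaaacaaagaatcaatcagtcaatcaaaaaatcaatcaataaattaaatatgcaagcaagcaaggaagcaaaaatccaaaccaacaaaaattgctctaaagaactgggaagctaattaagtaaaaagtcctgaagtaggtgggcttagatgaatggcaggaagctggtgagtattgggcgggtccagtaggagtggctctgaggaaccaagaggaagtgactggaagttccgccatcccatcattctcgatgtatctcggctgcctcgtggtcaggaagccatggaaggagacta
Zfp101, chr17:33394588-33394887, minus strand: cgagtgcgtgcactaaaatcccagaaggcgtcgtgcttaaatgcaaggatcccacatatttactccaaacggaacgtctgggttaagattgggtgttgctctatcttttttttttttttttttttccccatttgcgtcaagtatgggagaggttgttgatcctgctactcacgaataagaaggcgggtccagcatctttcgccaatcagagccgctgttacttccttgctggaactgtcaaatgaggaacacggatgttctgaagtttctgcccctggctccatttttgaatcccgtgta

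Zfp395, outside the clusters, and Zfp467, known in mouse bone marrow stromal cells for favouring fat over bone formation, fell without the KRAB pattern. Zfp395 was at 13.1, 13.5, 13.1, 14.2 and 7.19 CPM in saline replicates 1 to 5 and at 3.39, 3.50, 3.68, 4.83 and 2.91 CPM in LPS replicates 1 to 5. Its groups did not overlap (-1.74 ± 0.20, adjusted p = 1.22e-05). Zfp467 was at 7.51, 7.47, 5.72, 4.46 and 1.96 CPM in saline replicates 1 to 5 and at 2.28, 1.56, 1.84, 1.06 and 1.45 CPM in LPS replicates 1 to 5. Saline replicate 5 was the lowest saline library in both, and for Zfp467 it lay within the LPS range (-1.71 ± 0.33, adjusted p = 0.00102). Zfp961 was at 7.88, 9.36, 9.76, 8.91 and 6.60 CPM in saline replicates 1 to 5 and at 1.94, 2.57, 2.58, 2.62 and 3.64 CPM in LPS replicates 1 to 5. The exons of Zfp961 overlap those of Cyp4f18 on the other strand, whose reads cannot be told apart because no strand setting is given (-1.67 ± 0.19, adjusted p = 9.56e-06). The next were Zfp846 with -1.33 ± 0.22, Zfp9 with -1.32 ± 0.27, Zfp128 with -1.31 ± 0.23, Zfp763 with -1.24 ± 0.25 and Zfp870 with -1.19 ± 0.19 on the log2 scale (SE; adjusted p from 0.000224 to 0.00155). In each of these 5 genes all LPS libraries lay below all saline libraries. The call of each of these 10 members held in all 18 alternative fits. Of these 10, all but Zfp395 and Zfp870 are among the 39 members that reached 250 reads in saline alone. For these, fewer reads in the LPS group are in part built into the choice of members, which the 18 fits share.

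**Figure D4:**
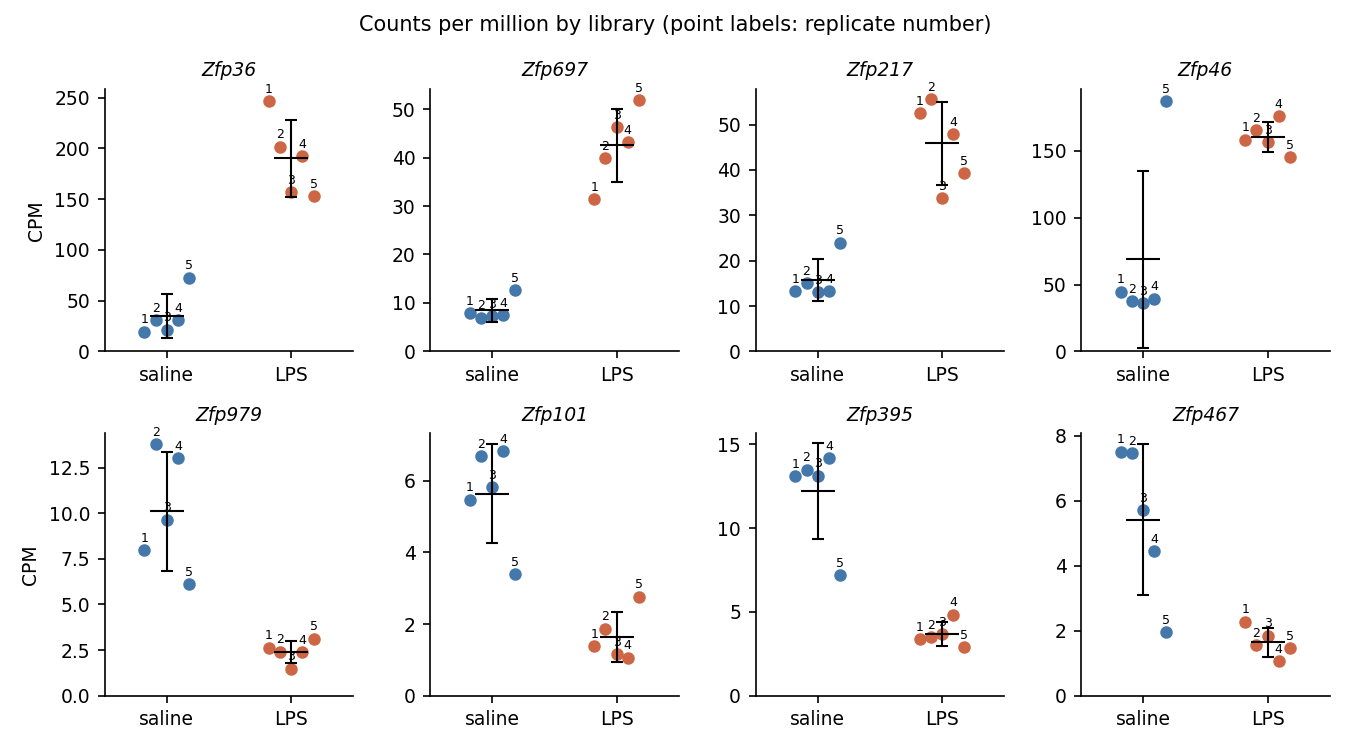
CPM in each library for 4 members with high values after LPS (upper row) and 4 with the largest falls (lower row); points are libraries numbered by replicate, bars are the mean and SD of 5. Zfp36 is at 19.4 to 72.6 CPM in saline and 153 to 247 CPM in LPS hearts, and saline replicate 5 of Zfp46, at 187 CPM, is above the LPS libraries.

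The largest rise was that of Zfp36, whose product tristetraprolin binds AU-rich elements in cytokine mRNAs such as that of Tnf and speeds their decay. Zfp36 was at 19.4, 31.04, 21.6, 30.8 and 72.6 CPM in saline replicates 1 to 5 and at 247, 202, 157, 192 and 153 CPM in LPS replicates 1 to 5. The groups did not overlap, and saline replicate 5 lay above the other saline libraries. The log2 fold change was 2.44 ± 0.38 (adjusted p = 0.000824) and 2.89 without saline replicate 5. Its exons overlap those of Gm44710 on the other strand. Zfp697, reported in mouse skeletal muscle as an RNA-binding regulator of regeneration, came next. Zfp697 was at 7.88, 6.97, 7.29, 7.52 and 12.7 CPM in saline replicates 1 to 5 and at 31.5, 39.8, 46.2, 43.2 and 51.9 CPM in LPS replicates 1 to 5. Again the groups did not overlap, and the change was 2.33 ± 0.18 (adjusted p = 6.89e-07), or 2.52 without saline replicate 5. Their RefSeq promoters are shown as those of the members that rose furthest, in the same window. Capitals in the first mark a serum response element match and, after it, a match to TTCNNNGAA, the STAT consensus:
Zfp36, chr7:28379179-28379478, minus strand: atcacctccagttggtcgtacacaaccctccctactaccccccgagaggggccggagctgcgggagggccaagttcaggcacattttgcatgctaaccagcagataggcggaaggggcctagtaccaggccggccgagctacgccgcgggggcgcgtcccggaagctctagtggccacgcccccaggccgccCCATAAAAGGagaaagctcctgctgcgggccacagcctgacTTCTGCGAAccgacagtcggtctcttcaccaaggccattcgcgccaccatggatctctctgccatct
Zfp697, chr3:98382231-98382530, plus strand: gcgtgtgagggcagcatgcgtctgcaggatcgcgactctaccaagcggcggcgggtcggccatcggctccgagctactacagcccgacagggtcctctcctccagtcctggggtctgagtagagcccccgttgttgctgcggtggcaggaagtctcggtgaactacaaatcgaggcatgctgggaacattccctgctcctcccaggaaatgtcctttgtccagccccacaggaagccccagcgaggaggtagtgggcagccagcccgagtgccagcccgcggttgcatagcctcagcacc

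Of 27025 RefSeq mouse promoters of this length, 1.57% held a serum response element and 8.47% TTCNNNGAA, searched on both strands. Promoters were found by symbol for 172 of the 209 members, and 1.74% of these held the former and 14.5% the latter. TGANTCA, the AP-1 site, was in 7.93% of all promoters and 4.07% of the members', an NF-kB consensus in 5.55% and 6.4%, CACGTG, the E-box, in 7.24% and 8.14%, and the core of the interferon-stimulated response element in 3.49% and 1.74%. TTCNNNGAA was in 8 of 72 promoters of members that fell, 2 of 13 of members that rose and 15 of 87 of members not called. The members' promoters had a median of 16 CpG and 56% GC, against 7 CpG and 52.7% GC in all. A match is a string of letters in a window and shows no binding.

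Zfp217, the mouse counterpart of a breast cancer oncogene, and Zfp281, a regulator of pluripotency genes in mouse embryonic stem cells, rose without overlap. Zfp217 was at 13.3, 14.99, 13.01, 13.3 and 23.9 CPM in saline replicates 1 to 5 and at 52.6, 55.6, 33.8, 47.9 and 39.3 CPM in LPS replicates 1 to 5. Zfp281 was at 16.4, 15.1, 15.5, 17.8 and 31.3 CPM in saline replicates 1 to 5 and at 47.04, 53.1, 44.3, 56.6 and 62.8 CPM in LPS replicates 1 to 5. Saline replicate 5 was the highest saline library in both, and the changes were 1.54 ± 0.19 (adjusted p = 4.39e-05) and 1.46 ± 0.20 (adjusted p = 9.60e-05). Zfp800 rose by 1.33 ± 0.20 on the log2 scale (adjusted p = 0.000149), and Zfp423, which commits precursor cells to the fat lineage, by 0.94 ± 0.16 (adjusted p = 0.000311), both without overlap. Zfp516 was at 15.2, 13.4, 10.4, 13.4 and 28.05 CPM in saline replicates 1 to 5 and at 39.2, 36.1, 26.6, 28.5 and 30.5 CPM in LPS replicates 1 to 5. Zfp516, which promotes the brown fat programme in mice, overlapped through saline replicate 5 (1.00 ± 0.24, adjusted p = 0.00626, and 1.30 without that library). Zfp97 rose by 1.17 ± 0.29 (adjusted p = 0.00572), but 83.1% of its windows of 50 bases are shared with other genes, most with Zfp960, so its reads are uncertain.

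The remaining 7 rises were small. Zfp30, a KRAB protein linked in mice to neutrophil recruitment in the airway, changed by 0.61 ± 0.19 (adjusted p = 0.0189), and the call was lost without saline replicate 3. Zfp703, a transcriptional corepressor, changed by 0.48 ± 0.14 (adjusted p = 0.0128) and Zfp1 by 0.45 ± 0.14 (adjusted p = 0.0186), both without overlap. Zfp628, Zfp513, Zfp330 and Zfp106 changed by 0.46, 0.43, 0.30 and 0.28 with adjusted p between 0.0259 and 0.0469. Each of these 4 lost its call without saline replicate 3, and apart from Zfp513 without several other libraries too. Of the windows of 50 bases of Zfp106, 25.2% are shared with other genes, nearly all with Gm26899, and of those of Zfp330 31.3%, so their reads are uncertain. None of the 7 kept its call under upper quartile or total count scaling.

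Zfp46 was not called, through 1 library. Zfp46 was at 44.8, 37.6, 36.1, 39.5 and 187 CPM in saline replicates 1 to 5 and at 158, 166, 157, 176 and 146 CPM in LPS replicates 1 to 5. Saline replicate 5 lay above every LPS library, and saline replicates 1 to 4 lay below them all. The log2 fold change was 1.22 ± 0.51 (adjusted p = 0.0901), and without saline replicate 5 it was 2.02 with an adjusted p of 2.52e-10. With limma voom the change was also called, at 1.58.

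Of 20 genes listed for well-known roles, 18 were members, Zfp57 and Zfp418 being under 500 reads. Of the 18, 6 rose (Zfp36, Zfp217, Zfp281, Zfp423, Zfp30 and Zfp106) and 3 fell, against 18.9% and 21% of all tested genes. The list was chosen with earlier results of these data known, so these counts describe the list only. Zfp521, which antagonises Ebf1 in blood and bone lineages, fell. Zfp521 was at 23.5, 17.5, 22.5, 18.6 and 14.7 CPM in saline replicates 1 to 5 and at 10.8, 10.3, 9.76, 11.5 and 7.49 CPM in LPS replicates 1 to 5. Its groups did not overlap (-0.96 ± 0.15, adjusted p = 0.000188). Zfp568, a KRAB protein that represses a placental Igf2 transcript in mouse embryos, also fell. Zfp568 was at 32.8, 31.99, 29.2, 23.3 and 25.97 CPM in saline replicates 1 to 5 and at 9.69, 10.97, 19.9, 12.04 and 22.04 CPM in LPS replicates 1 to 5. The groups did not overlap, with LPS replicates 3 and 5 nearest to saline (-0.94 ± 0.22, adjusted p = 0.00504). Zfp148, a GC-box binding factor, changed by -0.35 ± 0.12 (adjusted p = 0.0298), a call that ended when saline replicate 1, 2 or 4 or LPS replicate 1, 2 or 3 was left out.

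The other 9 were not called. Zfp445, which keeps imprints in mice, changed by -0.01 ± 0.15. Zfp445 was at 58.1, 68.2, 55.5, 61.7 and 67.7 CPM in saline replicates 1 to 5 and at 51.5, 65.9, 48.8, 52.6 and 90.03 CPM in LPS replicates 1 to 5. LPS replicate 5 was the highest of all 10 libraries, and without it the change was -0.18. Zfp809, which silences retroviral sequences in mouse embryonic stem cells, showed the same library at the top. Zfp809 was at 16.4, 22.7, 17.3, 15.6 and 19.7 CPM in saline replicates 1 to 5 and at 15.6, 21.7, 19.8, 16.5 and 34.4 CPM in LPS replicates 1 to 5. Its change was 0.24 ± 0.20 (adjusted p = 0.379) and 0.01 without LPS replicate 5. Zfp667 stood at -0.64 ± 0.25 (adjusted p = 0.0552), and it fell when saline replicate 2 was left out (-0.73) or LPS replicate 5 (-0.87). Its fall was also called with DESeq2 (adjusted p = 0.0458), limma voom (0.0442), upper quartile scaling (0.0184) and total count scaling (0.0105). Zfp143, an activator of snRNA and mRNA promoters, was at 0.15 ± 0.16, Zfp335 at 0.15 ± 0.15, Zfp410, which activates Chd4, at -0.15 ± 0.10, Zfp462 at 0.44 ± 0.27, Zfp598, a ubiquitin ligase that senses collided ribosomes, at 0.22 ± 0.12, and Zfp91, a ubiquitin ligase of the non-canonical NF-kB pathway, at -0.05 ± 0.09. Zfp462 was called, as a rise of 0.61, without LPS replicate 3.

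By chromosome, 49 members lay on chromosome 7, of which 25 fell and 3 rose, against 23.5% and 16% of the other protein-coding genes of at least 500 reads there. Chromosome 17 held 25 members (7 fell, 1 rose), against 19.1% and 20.3% of its other genes. Chromosome 8 held 18 (7 fell, 4 rose), against 22.6% and 18.8%. Chromosomes 6 and 9 held 13 each (6 fell on each), against 22% and 21.4% of the other genes that fell there. Without LPS replicate 5, 13 of the 25 on chromosome 17 fell. Members whose starts lie within 1 Mb of the next one, in runs of at least 3, formed 20 clusters with 105 members. Of these 51 fell and 3 rose, with a median of -0.47, against 21% and 18.9% of all tested genes. Of the 104 members outside such clusters 38 fell and 12 rose, with a median of -0.18. Without saline replicate 3, 1 member in these clusters, 1 on chromosome 7 and 1 with the KRAB pattern rose. The difference between members inside and outside clusters was not tested, and neighbours in a cluster are not replicates, since they share sequence and region.

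**Figure D5:**
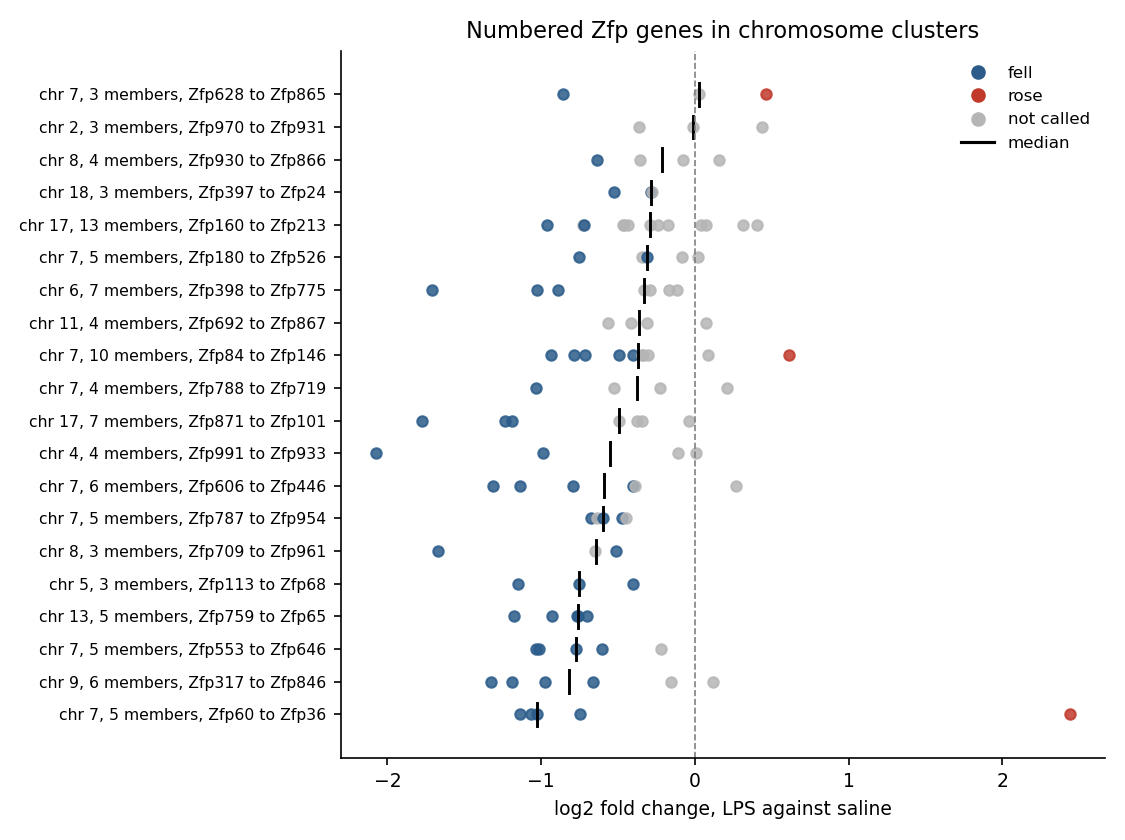
Log2 fold change of LPS against saline hearts for the 105 members in 20 chromosome clusters; each point is a gene, coloured by its call, and the black bar is the cluster's median. Medians run from -1.03 in the chromosome 7 cluster that holds Zfp36 to 0.03, and most clusters hold both called and uncalled genes.

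In the chromosome 13 cluster (67121660 to 67729173) all 5 members fell. They were Zfp759 at -0.76 ± 0.21, Zfp87 at -1.18 ± 0.28, Zfp748 at -0.76 ± 0.29, Zfp738 at -0.93 ± 0.25 and Zfp65 at -0.70 ± 0.25. Zfp87 was at 4.85, 5.52, 3.81, 5.38 and 3.39 CPM in saline replicates 1 to 5 and at 1.11, 1.71, 2.40, 1.47 and 3.42 CPM in LPS replicates 1 to 5. LPS replicate 5 lay just above saline replicate 5. When saline replicate 2 or 4 or any of LPS replicates 1 to 4 was left out, 3 of the 5 fell, as the calls of Zfp748 and Zfp65 were lost. Of the 5 other protein-coding genes of at least 500 reads in the span 4 fell. The chromosome 5 cluster (138139702 to 138619761) held Zfp113 at -0.76 ± 0.17, Zfp157 at -1.15 ± 0.28 and Zfp68 at -0.40 ± 0.13, all of which fell. The call of Zfp68 ended when saline replicate 2 or 4 or any of LPS replicates 1 to 4 was left out.

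The chromosome 7 cluster from 27731389 to 28380253 held opposite changes side by side. Zfp60, Zfp626, Zfp59 and Zfp974 fell, at -1.07 ± 0.21, -0.75 ± 0.23, -1.14 ± 0.29 and -1.03 ± 0.22, and Zfp36 at its end rose. Zfp60 was at 10.7, 10.8, 12.2, 11.6 and 12.4 CPM in saline replicates 1 to 5 and at 3.32, 4.82, 4.61, 5.49 and 9.24 CPM in LPS replicates 1 to 5. Zfp59 was at 4.85, 4.18, 4.04, 6.42 and 4.58 CPM in saline replicates 1 to 5 and at 1.11, 1.71, 2.58, 1.47 and 4.0 CPM in LPS replicates 1 to 5. In these genes the groups did not overlap, and LPS replicate 5 was the highest LPS library. Leaving out saline replicate 1 or 2, or LPS replicate 2 or 4, ended the call of Zfp626. Of the 10 other protein-coding genes of at least 500 reads in this span 2 fell and 2 rose. At 127233061 to 127885996 on chromosome 7, Zfp553, Zfp768, Zfp629 and Zfp646 fell, from -1.04 ± 0.27 to -0.60 ± 0.12, and Zfp771 was not called (-0.22 ± 0.12). On chromosome 9 (19622102 to 20605409), Zfp560, Zfp426, Zfp266 and Zfp846 fell, from -1.33 ± 0.22 to -0.66 ± 0.18, while Zfp317 and Zfp26, between or beside them, were at -0.16 ± 0.13 and 0.12 ± 0.15.

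Several clusters depended on LPS replicate 5. In the largest, with 13 members on chromosome 17 (21008903 to 23564238), Zfp229 and Zfp942 fell, at -0.97 ± 0.28 and -0.72 ± 0.20, and without LPS replicate 5, 6 members fell. The highest change there was that of Zfp948, not called at 0.40 ± 0.24. In the next cluster on that chromosome (32771236 to 33394641) Zfp870, Zfp763 and Zfp101 fell among 7 members, and without LPS replicate 5, 6 did. Zfp952, between them, was at -0.04 ± 0.16. In the cluster of 10 on chromosome 7 (29768552 to 30169750) 5 fell and Zfp30 rose. Without LPS replicate 5, 7 fell, without saline replicate 4, 2 fell, and without LPS replicate 1, 2 or 4, 3 fell. The largest fall there was that of Zfp568, described above. In the chromosome 2 cluster Zfp931 was at -0.37 ± 0.20 and Zfp970 at 0.43 ± 0.25. Zfp970 was at 27.4, 48.6, 29.3, 32.6 and 37.2 CPM in saline replicates 1 to 5 and at 34.2, 43.6, 38.01, 40.8 and 80.1 CPM in LPS replicates 1 to 5. LPS replicate 5 stood far above the rest, and 57.2% of the windows of Zfp970 are shared with other genes.

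Genes through which KRAB proteins act changed in both directions. Of 27 corepressor genes found and tested, 10 fell and 4 rose, with a median log2 fold change of -0.25, against 21% and 18.9% of all tested genes. With upper quartile scaling 16 fell and 2 rose (median -0.41), against 31.8% and 14.4% of all tested genes (median -0.18). With total counts 20 fell and 2 rose (median -0.54), against 41.6% and 12.3% of all tested genes (median -0.30). Trim28, the scaffold that KRAB domains bind, was at 59.0, 57.4, 55.6, 49.5 and 51.5 CPM in saline replicates 1 to 5 and at 43.0, 48.8, 61.5, 51.7 and 54.1 CPM in LPS replicates 1 to 5. The groups overlapped, and the change was -0.08 ± 0.10 (SE; adjusted p = 0.585). Setdb1 was at 16.9, 16.6, 18.9, 17.4 and 13.6 CPM in saline and at 9.96, 7.86, 14.6, 8.60 and 12.7 CPM in LPS hearts. It fell, with a change of -0.63 ± 0.16 (adjusted p = 0.0073) and LPS replicate 3 above the lowest saline library. The largest falls in the list were those of the DNA methyltransferases Dnmt3b (-1.17 ± 0.38, adjusted p = 0.0246) and Dnmt1 (-0.69 ± 0.14, adjusted p = 0.00109). Dnmt3b was sparse, at 0.951 to 2.17 CPM in saline and 0.246 to 1.23 CPM in LPS hearts, with the groups overlapping. The call of Dnmt3b ended when saline replicate 2 or 4 or LPS replicate 1, 2 or 4 was left out. The largest rises were those of Resf1, which silences retroelements in mouse cells (1.77 ± 0.41, adjusted p = 0.00865), and Morc3, a chromatin ATPase (1.43 ± 0.17, adjusted p = 2.51e-05). Chd4, the target named for Zfp410, was at -0.06 ± 0.08.

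Other zinc finger groups of at least 500 reads were set beside the members. For comparison, 21% of all tested genes fell and 18.9% rose, with a median of -0.02. Of 15 Zscan and Zkscan genes 7 fell, with a median of -0.38. Of 21 Zfp genes with other names 11 fell and 1 rose, with a median of -0.62. Of 10 further KRAB-pattern genes, all those that are not members, 3 fell, with a median of -0.54. Genes in the groups set by name were not removed from these 10, so the groups may overlap. Of 30 Zbtb genes 8 fell and 4 rose (median -0.27), and of 12 Klf genes 4 fell and 2 rose (median -0.26). The 15 Zc3h genes, which carry CCCH fingers, stood the other way, with 6 that rose, 1 that fell and a median of 0.23, which was -0.05 with total count scaling. With upper quartile and total count scaling, 15 and 19 Zbtb genes, 7 and 7 Klf genes, 12 and 13 Zscan and Zkscan genes and 6 and 6 of the further KRAB-pattern genes fell. Of the Zfp genes with other names 16 and 19 fell, and of the Zc3h genes 2 and 3. The shares of all tested genes that fell were then 31.8% and 41.6%. Without LPS replicate 5, 14 Zbtb genes, 5 of the further KRAB-pattern genes and 2 Klf genes fell, against 21.9% of all genes then tested. Of the Klf genes 1 or 2 also fell when saline replicate 1, 2 or 4 or LPS replicate 2, 3 or 4 was left out, and the Zc3h fall ended when any of saline replicates 1 to 4 or LPS replicate 1 or 3 was. No difference between these groups and the members was tested.

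Levels between genes were compared by the authors' FPKM, which divide by gene length. The members' mean FPKM had a median of 2.16 in saline, from 0.393 to 52.9, and of 1.88 in LPS hearts, from 0.180 to 65.4. Most members were thus sparse. The highest was Zfp106, an RNA-binding protein needed in mouse motor neurons and muscle, with 52.9 ± 6.36 FPKM (SD, n = 5) in saline and 65.4 ± 6.53 FPKM in LPS hearts, a level that the windows shared with Gm26899 leave uncertain. Zfp36 followed, with 10.7 ± 6.62 and 58.9 ± 11.8 FPKM, then Zfp706 with 24.6 ± 0.711 and 26.3 ± 2.78 FPKM, Zfp46 with 14.0 ± 13.5 and 33.0 ± 2.14 FPKM and Zfp970 with 17.0 ± 4.07 and 23.4 ± 9.45 FPKM. Zfp706 was not called (0.07 ± 0.09 on the log2 scale of counts, adjusted p = 0.594).

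Near-identical sequence limits how far reads can be placed. Of the 209 members 78 shared no window of 50 bases with another gene, 55 shared over 5% of their windows and 24 over 20%. Zfp59 shared 52.4%, Zfp931 22.2%, Zfp335 20.3% and Zfp738 20.3%. Of the 154 members with at most 5%, 66 fell and 10 rose, with a median log2 fold change of -0.34. Of the 55 above it 23 fell and 5 rose, with a median of -0.36. Exons of 17 members overlap those of another gene with at least 100 reads, and 9 of these fell. Among the 156 numbered Zfp genes under 500 reads, 15 had no reads and 90 were tested, of which 46 fell and 3 rose. The shares for all tested genes were 21% and 18.9%.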

How the data were processed

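RNA-seq of 10 mouse hearts was analysed, from 5 saline and 5 LPS mice. The authors deposited raw read counts per gene and FPKM (reads per kilobase of gene length and library size). Bowtie 0.12.2 is named in the submitters' processing notes without a role. The counting tool and strand setting are not stated in these sources. Coordinates equalled GENCODE M21 (GRCm38) for 53585 of 54532 genes and 201 of 209 members, so they are given as GRCm38. The submitters' processing notes name another mouse assembly. A further 20 per-sample columns, in 2 tables whose headers name 3 h for LPS, were not used; groups follow the labels, which give 24 h.

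Counts were tested over the whole table with edgeR 4.0.16 in R 4.3.3 (filterByExpr with a minimum count of 10 and total of 15, TMM factors, robust quasi-likelihood F-test, Benjamini-Hochberg adjustment over 13864 genes, threshold 0.05), a procedure tested on simulated data. "Rose" and "fell" mean past that threshold. Standard errors come from the F statistic, and CPM use the effective library size. Total counts of 14607969 to 17012372 set the counting precision. FPKM compared levels between genes only. Fingers and the KRAB pattern were searched in translated GENCODE coding sequences, since no protein table was used here.

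Members and lists were chosen with earlier results of these data known. Named members are the 10 largest called falls and rises, the 5 highest by FPKM, the extremes of each cluster, those at the 500-read limit and a list with known roles; others that illustrate a count or cluster were picked after seeing their values. As alternatives, scaling by RLE, upper quartile or total count was tried, then 2 filters, DESeq2 1.42.0, limma 3.58.1 voom, a replicate block, each library left out, and other limits for members and clusters.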

Additional observations from a re-analysis of the deposited data

Results flagged for a closer look

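A named member was looked at again where 1 library of a group of 5 lay far from the other 4, by Dixon's gap criterion with a critical value of 0.71. Over 67 named members this gave 15 such libraries in 134 groups, and chance flags about 1 in 20 groups. Of the 15, 8 concern saline replicate 5, the library with interferon-response genes far above the other saline libraries. It was the highest saline library for Zfp46 at 187 CPM, Zfp36 at 72.6 CPM, Zfp281 at 31.3 CPM, Zfp516 at 28.0 CPM, Zfp217 at 23.9 CPM and Zfp697 at 12.7 CPM, and the lowest for Zfp395 at 7.19 CPM and Zfp692 at 2.08 CPM. In each of these 8 its value lay toward the LPS libraries or past them.

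LPS replicate 5 was the highest LPS library for Zfp970 at 80.1 CPM and for Zfp991, at the 500-read limit, at 6.33 CPM. Saline replicate 3 was the lowest saline library for Zfp30 at 6.17 CPM and Zfp628 at 4.54 CPM. Single low LPS libraries were replicate 3 for Zfp106 at 527 CPM, replicate 1 for Zfp706 at 98.8 CPM and replicate 2 for Zfp212 at 6.22 CPM.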

How the results depend on the processing

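Calls of members kept their direction in all 18 alternative fits, and 63 of the 89 falls and 8 of the 15 rises were called in every one. Scaling mattered most. Against TMM, the median over all genes moved by -0.16 (log2) with upper quartile factors and by -0.27 with total counts. Relative to all genes, the members' median was -0.33 under each of these 3 scalings. A change of scaling moves nearly every gene alike, so this difference could hardly have changed and is no check. With total count scaling 139 members fell, 8 rose, the median was -0.62 and 56 KRAB-pattern members fell, while 41.6% of all genes fell. With upper quartile scaling 8 rose, at a median of -0.51. Falls were 85.6% of the members' calls with TMM, 93.8% with upper quartile factors and 94.6% with total counts. Falls also grew among all tested genes, of which 21%, 31.8% and 41.6% fell under these scalings and 18.9%, 14.4% and 12.3% rose. A sum of at least 100 reads gave 135 falls among 299 tested members, and 1000 reads gave 53 among 142, since the list itself changes. With each library left out in turn 68 to 108 members fell, 10 to 16 rose, the median was -0.46 to -0.28 and 31 to 48 KRAB-pattern members fell. Gaps of 500 kb and 2 Mb gave 17 and 22 clusters in place of 20.

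The replicate numbers did not pair the libraries (correlations of same-numbered libraries from -0.07 to 0.18). With a replicate block 88 members fell, 14 rose, the median was -0.38 and 40 KRAB-pattern members fell, and Zfp574 stood at -0.0031 and Zfp991 at -0.097.

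Changes of sign were listed for the 67 named members only. Over all 209 members, 45 log2 fold changes were positive under TMM, 26 under upper quartile factors and 20 under total counts. More members thus changed sign than are listed. Among the named members, uncalled ones near 0 changed sign, with no call on either side. With upper quartile scaling these were Zfp706 at -0.091, Zfp26 at -0.038, Zfp574 at -0.14, Zfp672 at -0.086, Zfp868 at -0.0077, Zfp991 at -0.15, Zfp143 at -0.014 and Zfp335 at -0.0086 on the log2 scale. With total count scaling these were Zfp706 at -0.21, Zfp26 at -0.15, Zfp446 at -0.0063, Zfp574 at -0.25, Zfp672 at -0.20, Zfp719 at -0.065, Zfp868 at -0.14, Zfp991 at -0.26, Zfp143 at -0.13, Zfp335 at -0.13, Zfp598 at -0.045 and Zfp809 at -0.029 on the log2 scale. Zfp445 was at 0.016 with RLE scaling and with DESeq2, and Zfp991 at -0.11 with limma voom. With each library left out the ranges were Zfp26 -0.00050 to 0.21, Zfp574 -0.070 to 0.11, Zfp952 -0.17 to 0.044, Zfp991 -0.40 to 0.17, Zfp445 -0.18 to 0.076 and Zfp91 -0.076 to 0.0015. Upper quartile and total count scaling move nearly every change alike, by -0.16 and -0.27 in the median over all genes. What else bears on the changes of sign was not tested. They were not confined to sparse members, as Zfp706 had 18834 reads. Counting precision is lowest for the sparse members, and 67 of 209 had under 1000 reads over all libraries.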
